A study of Mus musculus with 12 samples.

Results

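Star, the gene of the steroidogenic acute regulatory protein, was examined here together with 29 genes of cholesterol synthesis, its regulation, and cholesterol transport, export and storage, in cultured cardiomyocytes given a cytokine of the interleukin-6 family. These 30 genes, of 22915 in the deposited table, were picked by name, and Star was among them because its normalized value stood far higher with each of the 3 cytokines than with the control. The cells were primary cardiomyocytes of male C57/Bl6 mice at 12 weeks of age, kept in serum-free medium in normoxia for 24 h with PBS, murine LIF (mLIF), murine OSM (mOSM) or human-like OSM (hlOSM). Each protein was given at 25 ng/mL according to the labels, while the methods of the study give a slightly lower concentration. mLIF signals through the LIF receptor and mOSM through the OSM receptor. hlOSM is murine OSM with the AB loop exchanged for the human one, and it signals through both receptors, so that the 4 conditions separate the receptors by ligand. RNA of 3 libraries per condition was sequenced, and nothing in the labels says whether they came from separate animals or preparations, so that p-values measure only the spread between these libraries.

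Cells build cholesterol from acetyl-CoA through mevalonate, squalene and lanosterol, and the genes of this pathway are switched on together when sterols run low. The sensor is SCAP, which escorts the SREBP transcription factors out of the endoplasmic reticulum unless INSIG proteins hold it back. Cholesterol that is not built into membranes is stored as ester, exported by ABC transporters, or, in steroid-producing cells, carried by the STAR protein to the inner mitochondrial membrane, where the first step of steroid synthesis takes place. Star is best known from adrenal gland and gonads.

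The unit throughout is the normalized value, which the authors computed from read counts and rounded to whole numbers. It is not a read count, and the reads behind a single value are not known. A gene was tested if it had a normalized value of at least 10 in at least 3 libraries, which held for 13184 genes and for 29 of the 30. Fdps, the farnesyl diphosphate synthase gene, was left out, since its normalized values lay between 4 and 10 and reached 10 in 1 library. In the annotation 26.7% of its exonic bases overlap another gene on the same strand, and reads on more than 1 gene were not counted. Tm7sf2 entered with 4 such libraries, Abcg1 with 9, Acat2 with 11 and the other 26 with all 12. Differences are log2 fold changes of the normalized value plus 1, with the standard error (SE) of the limma fit, and a gene passed if its Benjamini-Hochberg adjusted p over all 13184 genes was under 0.05. Replicate numbers are not a term of this fit, and they took up less of the spread inside the conditions than numbers without an effect would. If an effect of the number had been taken out before deposit, which the sources used here do not say, the adjusted p would be too small, so that calls lost with the number as a block are given with their p from that fit. Of all 13184 genes, 14.7%, 20.2% and 22.7% had all mLIF, mOSM or hlOSM libraries above the PBS libraries, and 15.6%, 19.9% and 24.3% below. Against mLIF the shares were 12.9% above and 14.1% below for mOSM, and 14.6% and 17.1% for hlOSM. For hlOSM against mOSM they were 4.12% and 5.62%. A gap of this kind was not taken as a call. Library totals lay between 2745748 and 2911891 on the normalized scale. All 8 cardiomyocyte marker genes were detected, at summed normalized values of 16184 to 17996 in the PBS libraries and 12623 to 15416 in the cytokine libraries, and 5 of the 8 fell with mLIF (3 with the replicate block) and 7 with each OSM ligand, beside 4.44%, 15.8% and 19.8% of all genes for mLIF, mOSM and hlOSM. Markers of endothelial cells, fibroblasts, macrophages, and smooth muscle cells and pericytes were present as well. In such bulk RNA, fewer cells of a type and less RNA per cell cannot be told apart.

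Star (ENSMUSG00000031574, chr8:25806555-25815982 on mm10, plus strand, 8 merged exons with 4113 nt) had normalized values of 252, 200 and 99 for PBS, 623, 513 and 711 for mLIF, 1024, 1256 and 1620 for mOSM, and 1188, 1468 and 1868 for hlOSM. The 9 cytokine libraries therefore all lay above the 3 PBS libraries, and the OSM libraries all lay above the mLIF libraries, while mOSM and hlOSM overlapped. Mean normalized values were 183.7 ± 77.8 with PBS, 615.7 ± 99.2 with mLIF, 1300.0 ± 300.4 with mOSM and 1508 ± 341.8 with hlOSM (SD, n = 3 each). The means stood at 3.35, 7.08 and 8.21 times the PBS mean, and the log2 fold changes were 1.83, 2.89 and 3.11 (SE 0.22 each). Because this rise was what brought Star into the selection, it is given without a test. By log2 fold change Star ranked 14th of the 13184 genes with mLIF, 38th with mOSM and 36th with hlOSM. The PBS libraries were the most scattered of the 4 conditions, with a coefficient of variation of 42.4%. Without PBS replicate 3, the lowest library, the log2 fold changes were 1.44, 2.50 and 2.72, and without PBS replicate 1, the highest, 2.11, 3.17 and 3.39.

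**Figure D1:**
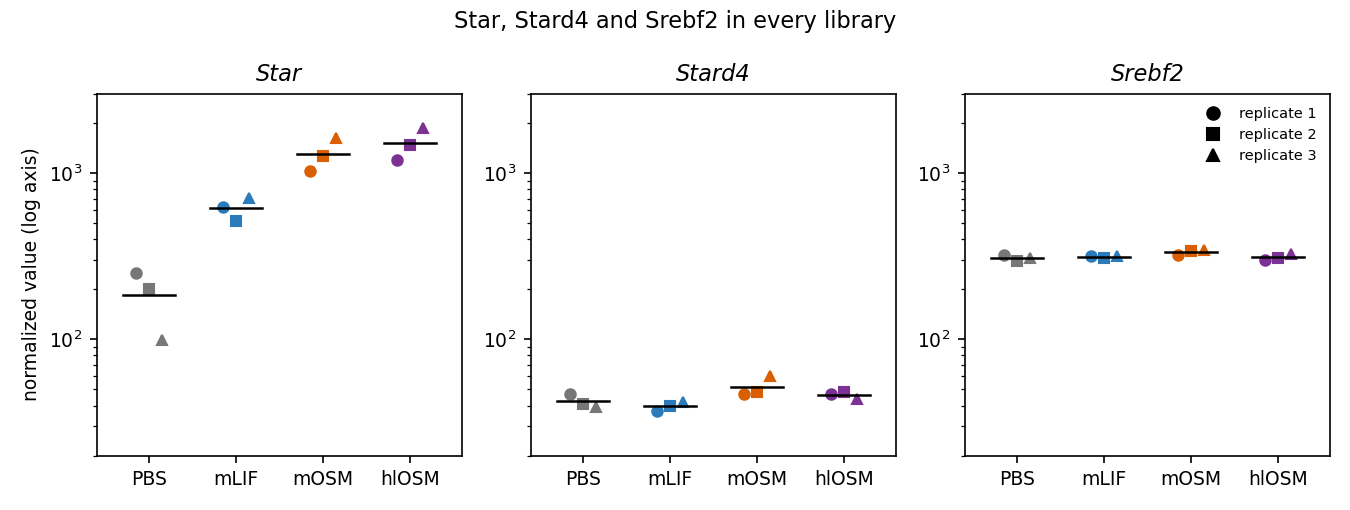
Normalized value (log axis) of Star, Stard4 and Srebf2 in each of the 12 libraries, with a symbol for each replicate number and a line at the mean of the 3 libraries of a condition. Star steps up from 99 to 252 with PBS to 513 to 711 with mLIF and 1024 to 1868 with both OSM ligands, while Stard4 and Srebf2 stay within 37 to 60 and 297 to 345.

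Star was chosen for its rise over PBS with each cytokine, and the cytokines were also compared with each other. These comparisons use cytokine values that helped to choose Star, and earlier results of these data were known by then. Their p-values are therefore not independent of the choice. Star was higher with mOSM than with mLIF by 1.06 on the log2 scale (95% confidence interval 0.61 to 1.52, adjusted p = 0.00192 in limma), and 3 of 3 mOSM libraries lay above all mLIF libraries. In an empirical Bayes fit made robust against genes of unusual variance, the same difference had an adjusted p of 0.0961 and did not pass. Star was higher with hlOSM than with mLIF by 1.28 (0.82 to 1.74, adjusted p = 0.000229), a call that held in each of the 21 alternative settings tried. Between hlOSM and mOSM the difference was 0.21 (-0.24 to 0.67, adjusted p = 0.895), and such an interval does not show the OSM ligands to be equal. The difference between the mLIF and PBS means on the log2 scale was 1.83, while that between hlOSM and mOSM, the pair that likewise differs by LIF receptor engagement, was 0.21.

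Per kilobase of exon, the mean normalized value of Star in PBS was 44.7, the fourth highest of the 30 genes, after Insig2 with 56.8, Hmgcs1 with 48.8 and Fdft1 with 46.8. With hlOSM it was 367 per kilobase, ahead of Hmgcs1 with 58.4 and Insig2 with 54.4. The other 29 genes kept to a range of 1.27 to 56.8 per kilobase in PBS and 1.00 to 58.4 with hlOSM. Star thus went from a level shared with several sterol genes in PBS to a level above each of the other 29 with hlOSM.

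**Figure D2:**
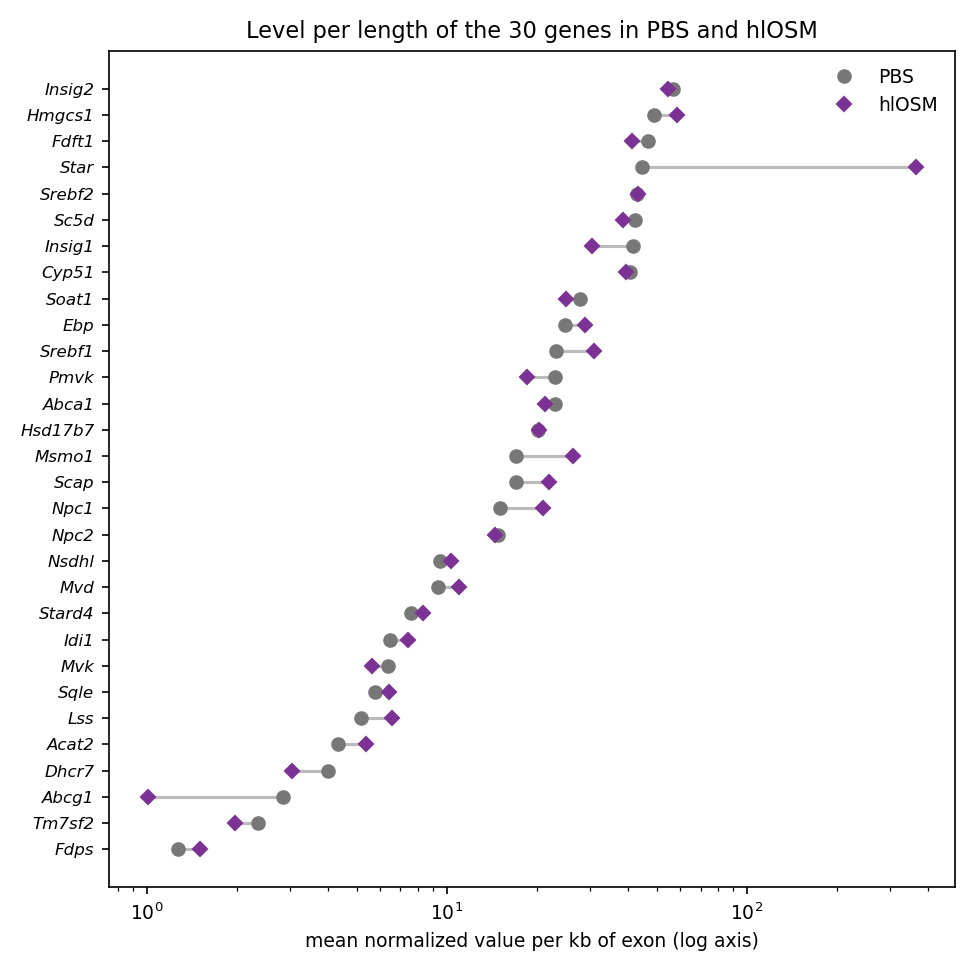
Mean normalized value per kilobase of exon (log axis) of the 30 genes with PBS (circles) and hlOSM (diamonds), ordered by the PBS level. Star lies at 44.7 with PBS and 367 with hlOSM, and Abcg1 moves the other way from 2.83 to 1.00, while most other pairs of symbols lie close together.

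Stard4, a soluble carrier of the same START-domain family that moves cholesterol between membranes, did not share this pattern. Normalized values of Stard4 were 47, 41 and 39 for PBS, 37, 40 and 42 for mLIF, 47, 48 and 60 for mOSM, and 47, 48 and 44 for hlOSM. The mOSM libraries lay above the mLIF libraries, by 0.37 on the log2 scale (limma adjusted p = 0.0900), a gap that 12.9% of all genes showed. Stard4 passed in none of the comparisons.

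Further genes of the steroid pathway formed a list of 17, of which 7 were in the table and 5 could be tested. The other 10, the side-chain cleavage enzyme gene Cyp11a1 among them, were not in the table. Tspo, which encodes a protein of the outer mitochondrial membrane, was the 1 gene of the 5 that passed. In either direction, 9.91%, 31.2% and 37.9% of all genes passed with mLIF, mOSM and hlOSM. With each OSM ligand, 1 of 5 was thus below the share of all genes, a difference that was not tested. Tspo had normalized values of 63, 66 and 57 for PBS, 89, 70 and 84 for mLIF, 73, 83 and 79 for mOSM, and 72, 74 and 87 for hlOSM. Every cytokine library lay above the PBS libraries, and Tspo rose by 0.38, 0.33 and 0.32 (adjusted p = 0.0428, 0.0326 and 0.0352). With the replicate number as a block none of these 3 calls held (adjusted p = 0.107, 0.0763 and 0.0789). Nr5a1, the nuclear receptor that marks adrenal and gonadal steroid cells, had a normalized value of 0 or 1 in every library. Of the 6 adrenal markers it was the only one in the table. Beside the rise of Star, the summed normalized value of 6 endothelial markers was 969 to 1020 with PBS, 970 to 1013 with mLIF, 1232 to 1337 with mOSM and 1217 to 1327 with hlOSM. Of the 6, 5 rose with each OSM ligand, beside 15.4% of all genes with mOSM and 18.2% with hlOSM. Pecam1 passed with neither OSM ligand and fell with mLIF (-0.28, limma adjusted p = 0.00916, and 0.0304 with the block). The summed value of 5 smooth muscle and pericyte markers was 604 to 813, 545 to 614, 309 to 369 and 299 to 322 in the same order. Of these, 5 of the 5 fell with each OSM ligand, beside 15.8% and 19.8% of all genes. For 6 fibroblast markers it was 1754 to 1926, 1643 to 1777, 1968 to 2373 and 1876 to 2136, with members in both directions. Of the 6, mOSM raised 2 and lowered 3, and hlOSM raised 3 and lowered 3. Col3a1 and Dcn were higher and Col1a2, Pdgfra and Tcf21 lower under both. Lum also rose with hlOSM (0.37, limma adjusted p = 0.0442), a call lost with the replicate block (adjusted p = 0.0748). For 7 macrophage markers the sum was 189 to 202, 196 to 210, 236 to 287 and 224 to 300. Of these, 5 were tested, and Cd68 was the 1 that rose, from a mean of 53.7 with PBS to 125 with mOSM and 132 with hlOSM. Mrc1 fell with hlOSM (-0.36, adjusted p = 0.0482, and 0.0988 with the block), and Adgre1, Csf1r and Ptprc passed with none of the cytokines. The 3 adipocyte markers analysed here summed to 37 to 43, 25 to 30, 16 to 26 and 13 to 23. None of the marker genes found in the table was at 0 in every library, which says nothing of those missing from it. The part of these shifts in the values of Star and of the sterol genes was not tested.

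Outside Star, the sterol genes as a group moved little. Of the other 28 genes tested, 2 were raised and 1 was lowered by mLIF, while 5.47% and 4.44% of all 13184 genes were. For mOSM the counts were 6 raised and 2 lowered, beside 15.4% and 15.8% of all genes. For hlOSM they were 5 raised and 2 lowered, beside 18.2% and 19.8%. In either direction, 10.7%, 28.6% and 25.0% of the 28 passed with mLIF, mOSM and hlOSM, and of all genes 9.91%, 31.2% and 37.9% did. The shares of the sterol genes that passed were thus near the background for mLIF and mOSM and below it for hlOSM, a difference that was not tested. The median log2 fold change of the 28 was 0.02, 0.01 and 0.01, and the median over all genes tested lay within 0.01 of 0. The mLIF count rests on few libraries. It was 0 without PBS replicate 3, without mLIF replicate 2 or without mLIF replicate 3, and 5 without hlOSM replicate 3.

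**Figure D3:**
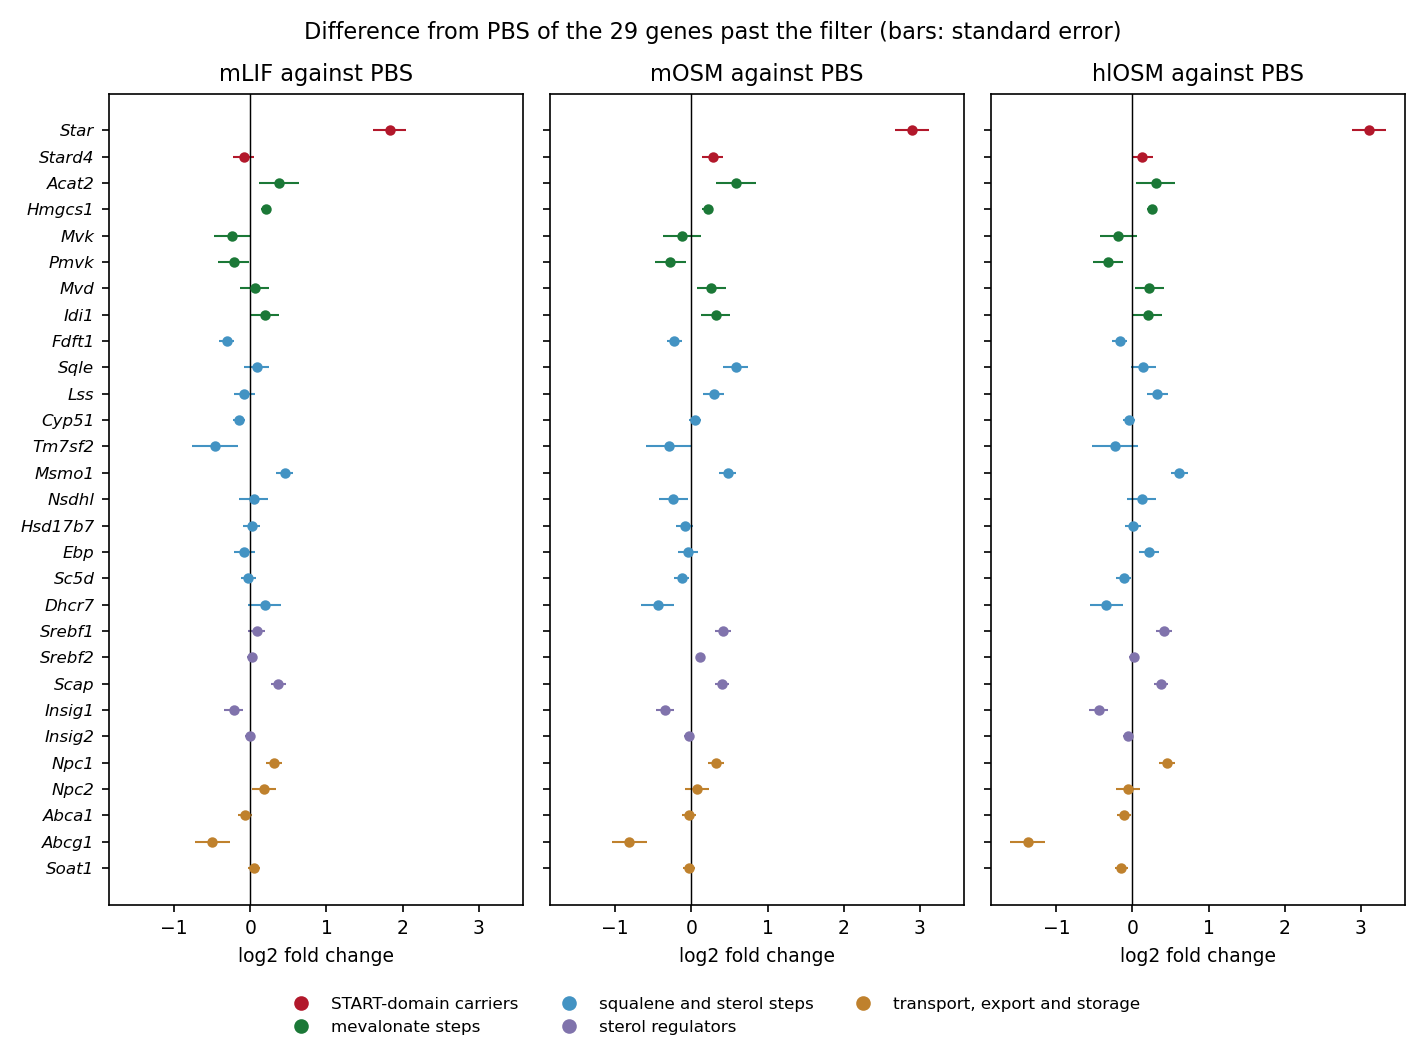
Log2 fold change against PBS of the 29 genes tested, for mLIF, mOSM and hlOSM, with bars for the standard error of the limma fit and colours for the role of the gene. Star stands apart at 1.83, 2.89 and 3.11, the other genes lie between -1.38 and 0.62, and Abcg1 is the lowest with each cytokine, at -0.50, -0.82 and -1.38.

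The synthesis of mevalonate and isoprenoid units was represented by 7 genes, of which 6 were tested. Hmgcs1, the cytosolic HMG-CoA synthase, had normalized values of 212, 234 and 227 for PBS, 263, 252 and 260 for mLIF, 263, 243 and 274 for mOSM, and 266, 268 and 271 for hlOSM. The 9 cytokine libraries all lay above the 3 PBS libraries by a narrow step. Hmgcs1 rose by 0.21 with mOSM (SE 0.07, adjusted p = 0.0176) and by 0.26 with hlOSM (SE 0.07, adjusted p = 0.00363), while the difference with mLIF was 0.20 (adjusted p = 0.0520). The mOSM call was lost without PBS replicate 1 (0.17, adjusted p = 0.0943), without mOSM replicate 1 (0.20, adjusted p = 0.0540) and without mOSM replicate 3 (0.17, adjusted p = 0.0619). Acat2, Mvk, Pmvk, Mvd and Idi1, the genes of acetoacetyl-CoA formation, of both mevalonate phosphorylations, of the decarboxylation and of the isomerization, passed in none of the comparisons. Their mean normalized values with PBS were only 11 to 39.3, and the SE of a log2 fold change in these 5 genes was larger than that of Hmgcs1.

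Of the 11 genes of squalene and sterol formation, Msmo1 was the one that passed with each cytokine. Msmo1 encodes the methylsterol monooxygenase that begins the removal of methyl groups from the sterol ring. It had normalized values of 120, 101 and 93 for PBS, 138, 149 and 141 for mLIF, 133, 158 and 146 for mOSM, and 151, 139 and 195 for hlOSM, with no overlap between PBS and the rest. Msmo1 rose by 0.45 with mLIF, 0.48 with mOSM and 0.62 with hlOSM (SE 0.11 each, adjusted p = 0.0131, 0.00222 and 0.000152). The mLIF call was lost without PBS replicate 3 (0.37, adjusted p = 0.0757), without mLIF replicate 2 (0.42, adjusted p = 0.0536) and without mLIF replicate 3 (0.46, adjusted p = 0.0514).

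Sqle, squalene epoxidase, which makes the first oxygenated intermediate, rose with mOSM. Its libraries had normalized values of 30, 31 and 35 for PBS, 29, 32 and 42 for mLIF, 52, 45 and 48 for mOSM, and 39, 39 and 29 for hlOSM. The mOSM libraries lay above those of the other 3 conditions. Sqle rose by 0.58 with mOSM (SE 0.16, adjusted p = 0.00914), and the difference from PBS was 0.14 with hlOSM (adjusted p = 0.527) and 0.08 with mLIF (adjusted p = 0.793). Compared directly, hlOSM lay below mOSM by 0.44 on the log2 scale, which did not pass (-0.78 to -0.10, adjusted p = 0.507, unadjusted p = 0.0139 in limma).

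Fdft1, squalene synthase, was the 1 enzyme gene that fell, with mLIF. Fdft1 had normalized values of 179, 177 and 237 for PBS, 166, 151 and 156 for mLIF, 165, 167 and 171 for mOSM, and 177, 193 and 154 for hlOSM. The fall with mLIF was -0.31 (SE 0.10, adjusted p = 0.0490), close to the threshold. It was lost without PBS replicate 3, the highest library, where the difference was -0.18 (adjusted p = 0.299), and also without mLIF replicate 1, 2 or 3 (adjusted p = 0.0690, 0.142 and 0.140), without mOSM replicate 1 (adjusted p = 0.0575) or without hlOSM replicate 1 (adjusted p = 0.0555). Without the filter its adjusted p was 0.0733, and after rescaling by the median of ratios 0.0512, and with the replicate block 0.0889. In the annotation 18.3% of the exonic bases of Fdft1 overlap Ctsb on the opposite strand, and whether reads were counted by strand is not given in the sources used here. If strand was not used, reads on such shared bases would have been left out, since reads on more than 1 gene were not counted. This also touches Scap with 13.2%, Hmgcs1 with 12.1% and Idi1 with 9.22% of their exonic bases.

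Lss, which makes lanosterol, and Cyp51, Tm7sf2, Nsdhl, Hsd17b7, Ebp, Sc5d and Dhcr7, which carry it on to cholesterol, did not pass against PBS with any cytokine. For Cyp51, the lanosterol demethylase, the normalized values were 166, 178 and 195 for PBS and 169, 177 and 176 for hlOSM, and the interval of that difference was -0.20 to 0.12. For Hsd17b7 it was -0.21 to 0.23, and for Sc5d -0.32 to 0.09. Dhcr7, the sterol reductase of the last step, had normalized values of 17, 22 and 31 for PBS, 27, 25 and 26 for mLIF, 21, 15 and 14 for mOSM, and 17, 19 and 17 for hlOSM. The libraries of both OSM ligands lay below those of mLIF, by -0.63 for mOSM and -0.53 for hlOSM on the log2 scale, which did not pass in limma (adjusted p = 0.0634 and 0.102). The normalized values of all 18 enzyme genes, Fdps included, added up to 1251 to 1428 in the PBS libraries, 1323 to 1370 with mLIF, 1360 to 1415 with mOSM and 1394 to 1438 with hlOSM. The ranges of PBS and of each cytokine overlapped. Star alone amounted to 6.93% to 20.1% of this enzyme sum in the PBS libraries and 84.6% to 130% with hlOSM.

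Among the 5 regulators, Scap rose with each cytokine. Its normalized values were 134, 121 and 123 for PBS, 139, 169 and 184 for mLIF, 178, 166 and 156 for mOSM, and 162, 156 and 171 for hlOSM, so that each cytokine library lay above the PBS libraries. Scap rose by 0.37 with mLIF, 0.40 with mOSM and 0.37 with hlOSM (SE 0.09 each, adjusted p = 0.0145, 0.00212 and 0.00331). The mLIF call was lost without PBS replicate 2 or 3 (adjusted p = 0.0527 each) and without mLIF replicate 2 or 3 (adjusted p = 0.0596 and 0.113).

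Srebf1, which encodes the SREBP-1 transcription factors of fatty acid and sterol genes, rose with the OSM ligands. Its normalized values were 148, 130 and 111 for PBS, 126, 143 and 141 for mLIF, 172 in each mOSM library, and 157, 156 and 208 for hlOSM. The mLIF libraries lay within the PBS range, and the OSM libraries lay above both. Srebf1 rose by 0.41 with mOSM and 0.42 with hlOSM (SE 0.11 each, adjusted p = 0.00497 and 0.00404), and its difference with mLIF was 0.08 (adjusted p = 0.669).

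Srebf2, which encodes SREBP-2, the main regulator of cholesterol synthesis, passed in no comparison. Its normalized values were 321, 297 and 306 for PBS, 316, 306 and 315 for mLIF, 319, 340 and 345 for mOSM, and 298, 309 and 326 for hlOSM. The 12 libraries stayed within a narrow range, and the interval of the difference with hlOSM was -0.11 to 0.14.

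Insig1 fell with the OSM ligands, whereas Insig2 did not pass. Both encode membrane proteins that retain SCAP, and Insig1 is itself a classical SREBP target. The normalized values of Insig1 were 122, 115 and 149 for PBS, 106, 131 and 95 for mLIF, 110, 98 and 94 for mOSM, and 90, 86 and 106 for hlOSM. The OSM libraries all lay below the PBS libraries, and the mLIF libraries overlapped with them. Under mOSM Insig1 fell by 0.35, and under hlOSM it fell by 0.45 (SE 0.12 each, adjusted p = 0.0326 and 0.00562). The mOSM call was lost without PBS replicate 3 (-0.24, adjusted p = 0.189) and without mOSM replicate 2 or 3 (adjusted p = 0.0842 and 0.103), and with the replicate block (adjusted p = 0.0574). Insig2 had normalized values of 194, 189 and 209 for PBS and 187, 192 and 188 for hlOSM, with an interval of -0.20 to 0.08 for the difference.

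**Figure D4:**
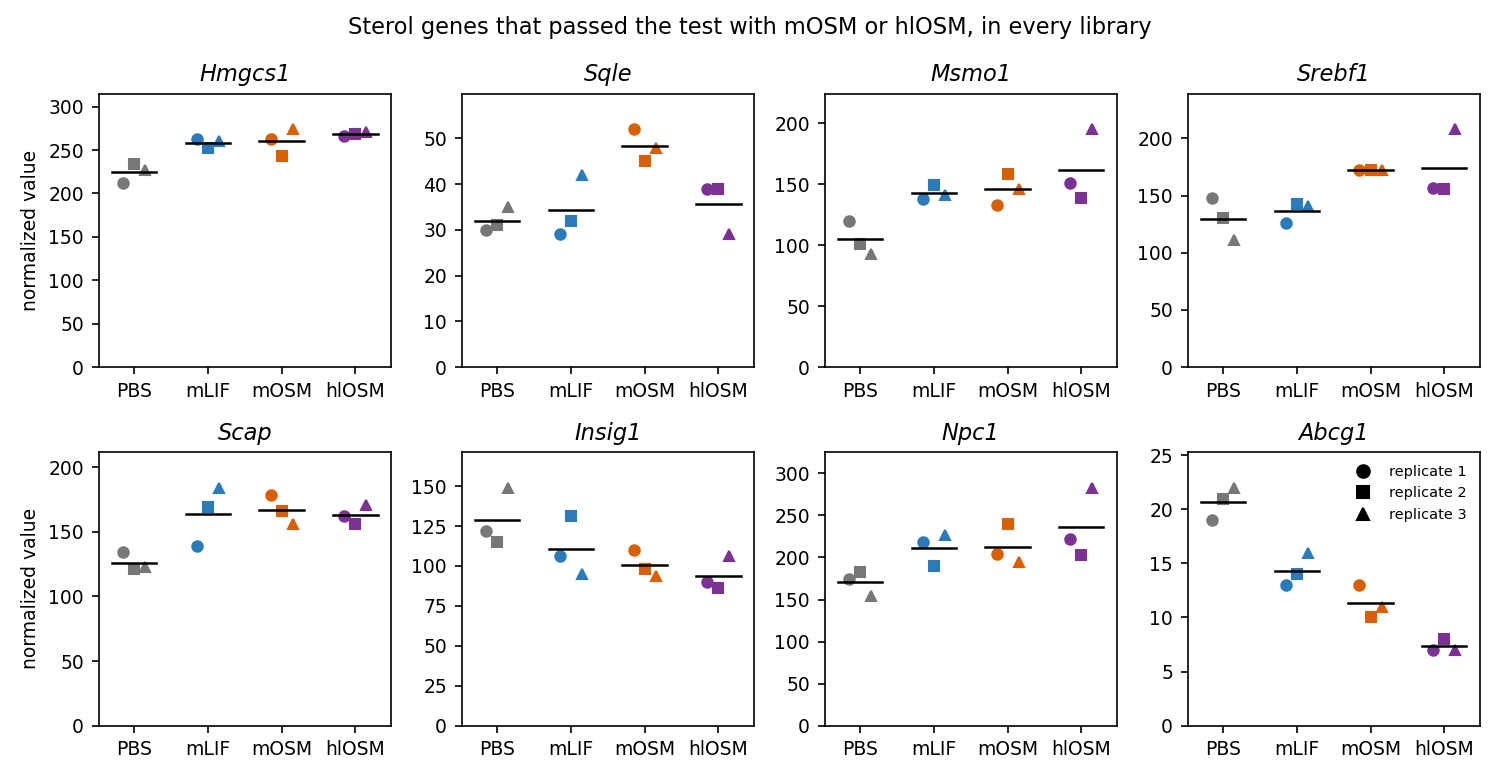
Normalized values in each library of the 8 genes other than Star that passed against PBS with mOSM or hlOSM, with symbols for the replicate numbers and a line at the mean of 3 libraries. Hmgcs1, Sqle, Msmo1, Srebf1, Scap and Npc1 step upward, with Sqle high in the mOSM libraries at 45 to 52, and Insig1 and Abcg1 step downward, Abcg1 from 19 to 22 with PBS to 7 to 8 with hlOSM.

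Promoter sequences are shown for the genes among these that passed with hlOSM and have an entry in the RefSeq table used here, since the sterol regulators act on such windows. Entries of 250 bases before to 50 bases after the transcription start were held for 23 of the 30 genes, in 31 windows of RefSeq on GRCm38.p6. Star, Stard4, Fdps, Fdft1, Sqle, Npc1 and Abcg1 had no entry in it. The windows lie at chr13:119690101-119690400 on the plus strand for Hmgcs1, chr8:64733529-64733828 on the minus strand for Msmo1, chr11:60222532-60222831 on the minus strand for Srebf1, chr9:110333038-110333337 on the plus strand for Scap and chr5:28071162-28071461 on the plus strand for Insig1. Each is written 5′ to 3′ on the strand of its gene. Capitals mark matches on either strand to the core of a sterol response element (TCACNCCAC), the CCAAT box (CCAAT, which reads ATTGG on the other strand) and the E-box CACGTG, and none of the matches overlap.
Hmgcs1: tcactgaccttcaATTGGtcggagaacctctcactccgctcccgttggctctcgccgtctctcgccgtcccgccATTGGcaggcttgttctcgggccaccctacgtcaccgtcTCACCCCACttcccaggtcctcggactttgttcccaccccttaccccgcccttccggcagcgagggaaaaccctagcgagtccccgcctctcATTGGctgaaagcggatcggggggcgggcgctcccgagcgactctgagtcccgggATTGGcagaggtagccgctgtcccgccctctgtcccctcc
Msmo1: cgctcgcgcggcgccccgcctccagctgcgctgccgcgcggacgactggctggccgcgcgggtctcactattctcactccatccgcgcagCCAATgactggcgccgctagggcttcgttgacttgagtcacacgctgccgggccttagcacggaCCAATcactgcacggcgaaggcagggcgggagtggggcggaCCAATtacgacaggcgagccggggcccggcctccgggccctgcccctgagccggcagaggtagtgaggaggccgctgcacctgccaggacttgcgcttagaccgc
Srebf1: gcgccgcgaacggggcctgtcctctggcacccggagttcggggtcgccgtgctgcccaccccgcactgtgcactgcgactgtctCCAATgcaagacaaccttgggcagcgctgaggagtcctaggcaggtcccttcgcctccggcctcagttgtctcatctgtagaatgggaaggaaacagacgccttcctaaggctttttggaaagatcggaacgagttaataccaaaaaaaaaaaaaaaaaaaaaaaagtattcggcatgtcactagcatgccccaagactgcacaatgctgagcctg
Scap: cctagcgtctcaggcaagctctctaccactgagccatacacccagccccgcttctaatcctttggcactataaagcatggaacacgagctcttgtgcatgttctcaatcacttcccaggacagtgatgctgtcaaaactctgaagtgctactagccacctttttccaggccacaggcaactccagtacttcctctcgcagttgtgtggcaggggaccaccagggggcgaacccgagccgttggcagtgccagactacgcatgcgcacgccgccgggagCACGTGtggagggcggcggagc
Insig1: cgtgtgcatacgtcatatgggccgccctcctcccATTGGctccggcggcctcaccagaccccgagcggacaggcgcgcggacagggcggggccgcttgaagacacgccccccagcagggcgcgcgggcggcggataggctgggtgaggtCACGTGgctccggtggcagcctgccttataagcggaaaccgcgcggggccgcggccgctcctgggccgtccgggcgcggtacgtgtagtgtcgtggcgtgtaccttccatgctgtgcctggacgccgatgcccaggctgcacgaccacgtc
Hmgcs1 held the 1 match to the sterol response element core among the 31 windows, together with 4 CCAAT boxes, against matches to that core in 1.24% of 32851 windows of the same length. Msmo1 held 3 CCAAT boxes, Srebf1 held 1, Insig1 held 1 beside an E-box, and Scap held an E-box. CCAAT boxes were found in windows of 20 of the 23 genes, 21 of the 31 windows, against 37.4% of all windows. The E-box was found for Abca1, Dhcr7, Hsd17b7, Insig1, Sc5d and Scap, in 7 windows, against 7.15% of all. A STAT element of the form TTCNNNGAA, the sequence type bound by the transcription factors of this cytokine family, was in the window of Ebp alone, against 8.30% of all windows, and Ebp passed in none of the comparisons. Both strands were searched for each motif, and a match describes letters and not a bound site.

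Transport, export and storage were represented by 5 genes. Npc1, the membrane protein that releases cholesterol from lysosomes, had normalized values of 174, 183 and 154 for PBS, 218, 190 and 227 for mLIF, 204, 240 and 195 for mOSM, and 222, 203 and 283 for hlOSM. Each cytokine library lay above the PBS libraries. Npc1 rose by 0.32 with mOSM and 0.46 with hlOSM (SE 0.11 each, adjusted p = 0.0254 and 0.00168), and its difference with mLIF was 0.31 (adjusted p = 0.0646). The mOSM call was lost without PBS replicate 3 (0.25, adjusted p = 0.121), without mOSM replicate 2 (0.23, adjusted p = 0.145) and after quantile rescaling (adjusted p = 0.0521). Npc2, its soluble partner in the lysosome, passed in none of the comparisons, with an interval of -0.38 to 0.27 for hlOSM.

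Abcg1, an exporter of cholesterol to lipoproteins, fell furthest. Its normalized values were 19, 21 and 22 for PBS, 13, 14 and 16 for mLIF, 13, 10 and 11 for mOSM, and 7, 8 and 7 for hlOSM. All cytokine libraries lay below the PBS libraries, and the hlOSM libraries lay below those of mLIF and mOSM. Abcg1 fell by 0.82 with mOSM (SE 0.23, adjusted p = 0.00895) and fell by 1.38 with hlOSM (SE 0.23, adjusted p = 5.71e-05), and its difference with mLIF was -0.50 (adjusted p = 0.173). At such low values the log2(normalized value + 1) scale understates the change, and the hlOSM mean was 0.355 of the PBS mean.

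Abca1, the exporter that loads lipid-poor apolipoprotein, and Soat1, which esterifies cholesterol for storage, passed in no comparison. For Abca1 the normalized values were 236, 216 and 259 for PBS and 201, 206 and 251 for hlOSM, with an interval of -0.30 to 0.07. For Soat1 they were 282, 243 and 289 for PBS and 249, 258 and 228 for hlOSM, with an interval of -0.31 to 0.02.

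Direct comparisons of the cytokines over all 29 genes asked whether the receptor made a difference to the pathway. Between mOSM and mLIF 2 genes passed, Star and Srebf1, both higher with mOSM. Star was selected for its rise with the cytokines, so the share is given without it, 1 of 28 or 3.57%. Of all genes 11.8% passed there, 6.05% higher and 5.76% lower with mOSM. Between hlOSM and mLIF 4 passed, with Star, Srebf1 and Lss higher and Abcg1 lower with hlOSM. Without Star it was 3 of 28 or 10.7%. Of all genes 16.6% passed, 7.42% higher and 9.22% lower. Between hlOSM and mOSM 0 of 29 passed in limma, where 0.106% of all genes did, and 2 of the 29, Sqle and Abcg1, had an unadjusted p under 0.05, as did 7.49% of all genes. Srebf1 was higher by 0.33 with mOSM and by 0.33 with hlOSM than with mLIF (SE 0.11 each, adjusted p = 0.0470 and 0.0361). These calls lay near the threshold. The first was lost when any 1 of PBS replicate 2 and the 6 mLIF and mOSM libraries was left out (adjusted p up to 0.196), without the filter (0.0693) and after rescaling by the median of ratios (0.0506) or by quantiles (0.0732). The second was lost without any 1 mLIF library or without hlOSM replicate 3 (adjusted p up to 0.228), without the filter (0.0532) and after quantile rescaling (0.0530). With the replicate block neither passed (adjusted p = 0.0823 and 0.0637).

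Lss, lanosterol synthase, which closes the sterol ring, had normalized values of 57, 52 and 59 for PBS, 58, 58 and 44 for mLIF, 67, 61 and 79 for mOSM, and 62, 74 and 76 for hlOSM. The OSM libraries all lay above the PBS and mLIF libraries. It was higher with hlOSM than with mLIF by 0.41 (SE 0.13, adjusted p = 0.0413), a call that was lost without mLIF replicate 3 (0.28, adjusted p = 0.219), mOSM replicate 1 (adjusted p = 0.0514), hlOSM replicate 2 (0.37, adjusted p = 0.123) or hlOSM replicate 3 (0.35, adjusted p = 0.137), without the filter (adjusted p = 0.0589) and with the replicate block (adjusted p = 0.0947). Abcg1 was lower with hlOSM than with mLIF by 0.88 on the log2 scale (-1.35 to -0.40, adjusted p = 0.0102), which held in each of the 20 alternative settings that kept the gene. In the term that compares the step from mOSM to hlOSM with that from PBS to mLIF, 0 of the 28 genes other than Star passed in limma, where 0.167% of all genes did, and 3 of the 28, Fdft1, Sqle and Scap, had an unadjusted p under 0.05, as did 11.5% of all genes.

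**Figure D5:**
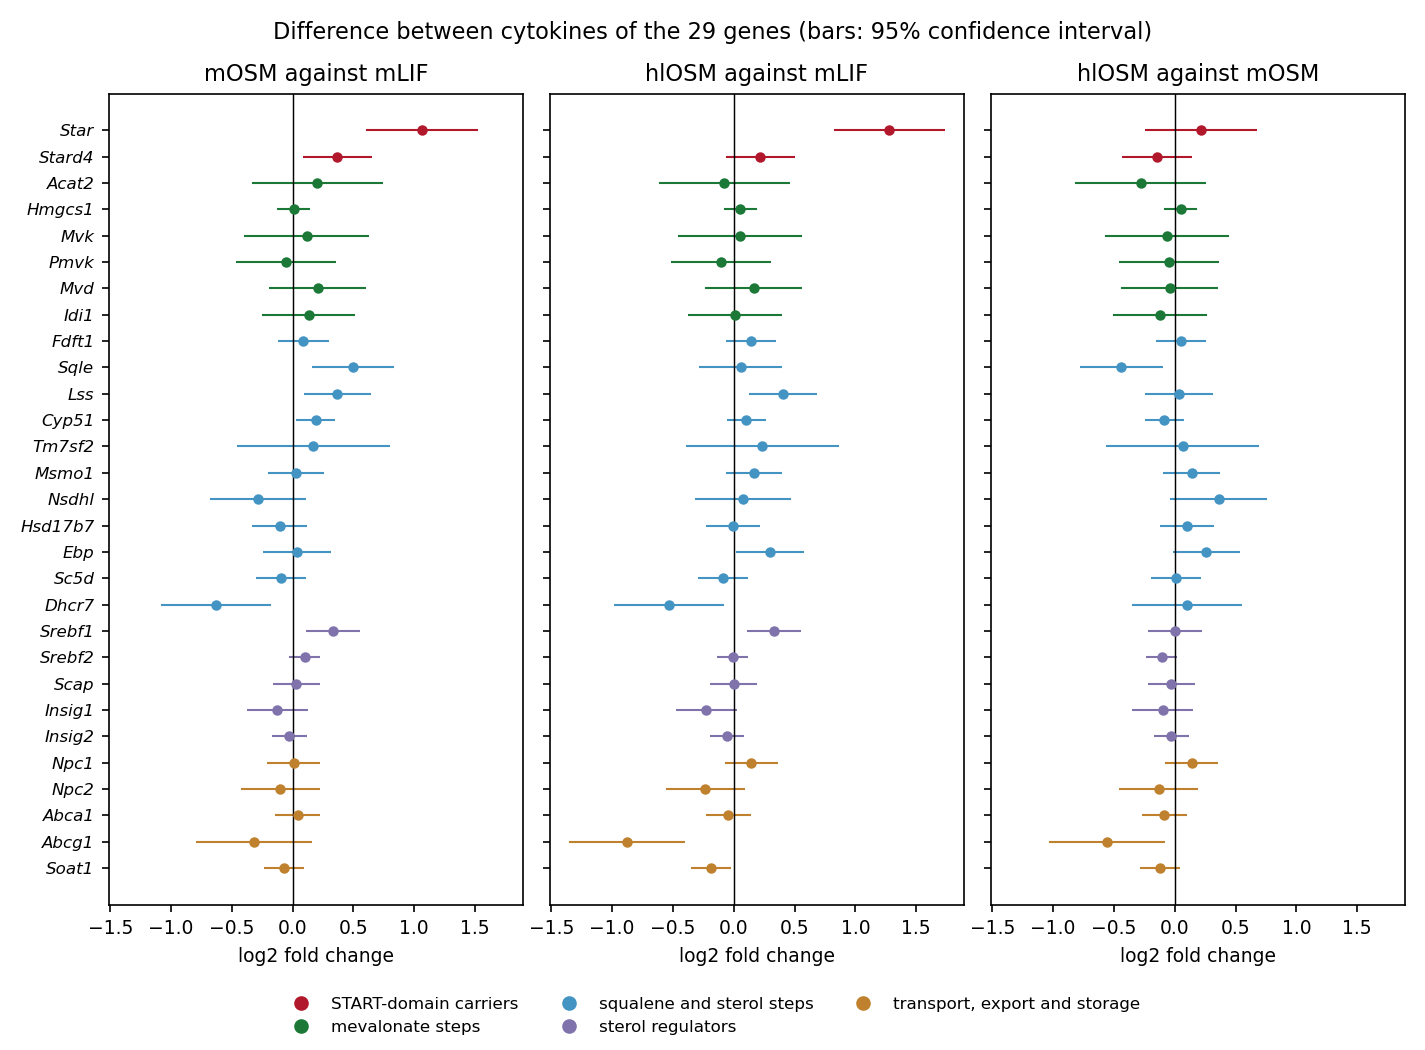
Log2 fold change of the 29 genes between the cytokines, with 95% confidence intervals of the limma fit and colours for the role of the gene. Star lies to the right in both comparisons with mLIF, at 1.06 and 1.28, and at 0.21 with an interval across 0 between hlOSM and mOSM, while Abcg1 lies lowest of the hlOSM against mLIF values at -0.88.

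A further list of 27 genes of sterol uptake, sensing, traffic and turnover, all of them tested, changed in both directions. mLIF raised 5 and lowered 1, mOSM raised 8 and lowered 5, and hlOSM raised 8 and lowered 7 of them, with medians of 0.08, -0.01 and 0.04. In either direction 22.2%, 48.1% and 55.6% of the 27 passed, where 9.91%, 31.2% and 37.9% of all genes did. With the replicate block mLIF raised 1 and lowered 1. Scarb1, the receptor for selective uptake from high-density lipoprotein, rose from a mean normalized value of 83.7 ± 5.77 with PBS to 106 ± 3.51 with mLIF, 150 ± 4.93 with mOSM and 145.0 ± 17.3 with hlOSM (SD, n = 3 each). Its log2 fold changes were 0.34, 0.83 and 0.78 (limma adjusted p = 0.0243, 3.83e-07 and 7.06e-07), and the mLIF call was lost with the replicate block (adjusted p = 0.0672). Mbtps2, the site-2 protease that frees the SREBP factors from the Golgi membrane, rose by 0.28, 0.36 and 0.41 (adjusted p = 0.0375, 0.00196 and 0.000449), again without the mLIF call under the block (adjusted p = 0.0842). Vldlr, a lipoprotein receptor of muscle, fell by 0.29, 0.70 and 0.76 on the log2 scale (adjusted p = 0.00446, 1.24e-08 and 2.19e-09). Osbp, which exchanges cholesterol between endoplasmic reticulum and Golgi, fell by 0.34 under mOSM and fell by 0.46 under hlOSM (adjusted p = 0.000169 and 3.7e-06). Scarb1 and Vldlr, both receptors of lipoprotein uptake, thus moved in opposite directions.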

How the data were processed

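RNA from primary cardiomyocytes under 4 conditions, with 3 libraries each, had been read on an Illumina sequencer after stranded total RNA preparation. Per the labels, alignment to mm10 was done with STAR 2.7.7a and counting over exons with featureCounts 1.6.5, and reads on more than 1 gene were left out by the authors, who then scaled the counts and rounded the outcome to whole numbers. The deposited values are therefore scores on a normalized scale and not read counts, so that no count model was used and the depth behind a value is unknown. The normalization is not given in the sources used here.

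log2(normalized value + 1) was fitted with limma 3.58.1 in R 4.3.3 (lmFit, eBayes with a mean-variance trend, two-sided) over 13184 genes and all 12 libraries. Comparisons were each cytokine against PBS, the cytokines against each other, and (hlOSM - mOSM) - (mLIF - PBS). The genes named are the 30 genes, and other list genes where a result turns on them, chosen after their values were seen. The 30 genes and the lists were chosen with earlier results of these data known, so that Star against PBS, and terms that hold both, carry no test. Comparisons against PBS share the PBS libraries. Exon lengths are from the reference annotation, in which the coordinates of all 30 genes were the same. Scripts were tested on simulated data. Alternatives were other pseudocounts, filters and scalings, a robust fit, the compared libraries alone, the replicate number as a block, and each library left out.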

Additional observations from a re-analysis of the deposited data

Results flagged for a closer look

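For Star, the step from mOSM to hlOSM was smaller than that from PBS to mLIF, and the difference of these log2 steps was -1.61 (SE 0.31). It was flagged because the adjusted p of this term was under 0.05 in the limma fit over all genes. The step from PBS to mLIF was 1.83, and that from mOSM to hlOSM was 0.21. The PBS and mLIF values helped to choose Star, so the flag is not an independent test. The term is a description and no p is given. Without PBS replicate 3, whose value of 99 was the lowest, the term was -1.22, and over the single libraries left out it ran from -1.89 to -1.22.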

How the results depend on the processing

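Counts against PBS leave Star out, and those between the cytokines include it, so the 2 kinds cannot be set side by side. The count of genes passing was 3 with mLIF against PBS, 5 in a fit of the libraries compared alone, and 0 to 5 with single libraries left out. Between mOSM and mLIF it was 2, 1 without a filter, in the robust fit and with the replicate block, and 1 to 4 with single libraries left out, with 4 reached without PBS replicate 3 and 1 without PBS replicate 2, mLIF replicate 1 or 2, or mOSM replicate 2 or 3. Between hlOSM and mLIF it was 4, 2 without a filter and with the replicate block, and 2 to 4 with single libraries left out, with 2 reached without mLIF replicate 3 or hlOSM replicate 3. Against PBS, 6 to 9 genes passed with mOSM and 6 to 8 with hlOSM over the alternatives, and between hlOSM and mOSM 0 passed throughout. No call changed its direction. The comparison of the compared libraries alone was not run for the difference of steps, and a filter at 50 leaves out the low genes.

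Libraries with the same replicate number did not deviate together. Over 6626 genes with a mean of at least 100, the correlations of their deviations from the condition means ran from -0.518 to 0.0221, and 5.86% of the spread inside the conditions went with the number, while 25% would do so if numbers had no effect. With the number as a block, 2, 7 and 7 of the 28 genes passed against PBS for mLIF, mOSM and hlOSM, in place of 3, 8 and 7, and of all genes 5.95%, 25.3% and 31.2% passed. Among the calls named, those lost were Fdft1, Scarb1 and Mbtps2 with mLIF, Insig1 with mOSM, and Lum and Mrc1 with hlOSM. Also lost were Srebf1 and Lss against mLIF, and Tspo, with the values given above. In the list of 27, 1, 6 and 7 genes were then raised and 1, 4 and 5 lowered. Star passed with the block against mLIF for mOSM (0.00129) and hlOSM (0.000124). If an effect of the number had been taken out before deposit, the fit without the block would give p-values that are too small. The cause of these changes was not tested. The depth behind a normalized value is unknown, so that counting error at low values such as those of Abcg1 cannot be given.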
